A study of Homo sapiens with 24 samples.

Results

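The GADD45 genes and the inhibitors of cyclin-dependent kinases (CDKs) were read in 2 lymphoblastoid lines, GM10861 and GM10855, which are human B cells immortalised with Epstein-Barr virus and belong to the HapMap collection. Of 10 genes chosen by symbol (GADD45A, GADD45B, GADD45G, CDKN1A, CDKN1B, CDKN1C, CDKN2A, CDKN2B, CDKN2C and CDKN2D), 9 had exactly 1 probe set each on the array among 21214 tested, and CDKN2C is named only. Each line was profiled at 36 h under calcitriol (active vitamin D) together with estrogen, at 36 h under calcitriol, at 36 h under estrogen, and without agent at 0 h, with 3 arrays in each of the 8 groups. All untreated arrays were thus from 0 h, so in every comparison with them the agent and 36 h of culture cannot be told apart, whereas the 3 treated groups were matched in time. Each line stands for itself, and no source used here says that a group's 3 arrays were of separate cultures, so p-values measure the spread between arrays, which may be technical.

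CDK inhibitors fall into the Cip/Kip family (p21, p27 and p57, from CDKN1A, CDKN1B and CDKN1C), which binds CDK complexes with several cyclins, and the INK4 family (from the CDKN2 genes), which binds the cyclin D partners CDK4 and CDK6. GADD45 proteins are small stress-inducible factors that bind PCNA, p21 and CDK1 and activate the kinase MAP3K4, and GADD45A and CDKN1A are textbook targets of p53. Calcitriol acts through the vitamin D receptor, a nuclear receptor that binds DNA with a retinoid X receptor, and slows the growth of several cell types, in which CDKN1A, CDKN1B and GADD45A have been described as induced.

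The 24 arrays had medians of 5.38 to 5.50 log2 signal, and no array stood apart from its group. The B cell markers lay at a median percentile of 85.4 of all tested probe sets by mean signal, against 24 for T cell, 30.1 for monocyte and 36.4 for fibroblast markers. The antimicrobial peptide gene CAMP and the vitamin D catabolic gene CYP24A1 were higher by 2.46 and 2.06 on the log2 scale after calcitriol than in untreated cells (limma, adjusted p = 1.21e-13 and 3.89e-11). The vitamin D receptor gene VDR was higher by 0.44 (limma adjusted p = 2e-04). Against estrogen, matched in time, CAMP, CYP24A1 and VDR were higher with calcitriol by 2.33, 2.04 and 0.38 (limma adjusted p = 3.85e-13, 4.76e-11 and 0.00158). By mean signal, GADD45A stood at percentile 90.1, CDKN1A at 87.1, GADD45B at 81.2, CDKN1B at 75.7, CDKN1C at 74.7, CDKN2A at 62.5 and CDKN2D at 59.1. CDKN2B and GADD45G stood at 36.6 and 35.1, and without detection p-values it was not tested whether these dim probe sets measured any transcript. A signal of one probe set cannot be set against that of another, so these ranks are only a guide to how bright each was.

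GADD45A, which binds CDK1 and PCNA and acts at the G2/M checkpoint, was the only member called in an agent comparison averaged over the lines. It was higher at 36 h with calcitriol, with or without estrogen, than in untreated cells at 0 h. In GM10861, its log2 signals were 8.08, 8.32 and 8.38 with both agents, 8.13, 8.27 and 8.38 with calcitriol, 7.98, 8.05 and 8.03 with estrogen, and 8.12, 7.82 and 8.13 untreated. In GM10855, they were 8.49, 8.38 and 8.56 with both agents, 8.61, 8.43 and 8.51 with calcitriol, 8.20, 8.13 and 8.36 with estrogen, and 8.14, 8.13 and 8.08 untreated. Every array with calcitriol in GM10855 lay above every array without it. In GM10861 the lowest calcitriol array and the highest untreated array both read 8.13 and were only 0.00051 apart, and the lowest array with both agents lay below 2 untreated arrays.

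Averaged over the lines, GADD45A was higher by 0.32 ± 0.0677 on the log2 scale with calcitriol than untreated (SE; 95% interval 0.18 to 0.46, limma with Benjamini-Hochberg adjustment over all tested probe sets, adjusted p = 0.0199). It was the only 1 of 9 members to pass an adjusted p of 0.05 there, when 0.679% of all tested probe sets did, and all 6 calcitriol arrays exceeded the untreated mean of their line. With both agents it was higher by 0.30 ± 0.0677 than untreated (interval 0.16 to 0.44, limma adjusted p = 0.0245), again 1 of 9 members against 1.15% of all probe sets, and again 6 of 6 arrays lay above. These comparisons share the untreated arrays. The call was lost in both comparisons when only the arrays compared entered the fit (limma adjusted p = 0.0642 for calcitriol and 0.0917 for both agents). It was also lost without any 1 of 5 of the 12 arrays compared for calcitriol and of 6 of the 12 for both agents, with limma adjusted p up to 0.0766 and 0.0867.

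The comparisons matched in time gave GADD45A differences of nearly the same size that did not pass. It was higher by 0.27 ± 0.0677 with calcitriol than with estrogen (interval 0.13 to 0.41, limma adjusted p = 0.0899), and by 0.24 ± 0.0677 with both agents than with estrogen (interval 0.10 to 0.38, limma adjusted p = 0.141). All 6 arrays lay above the estrogen mean of their line in each. Estrogen itself left a difference of 0.05 from untreated (interval -0.09 to 0.20, limma adjusted p = 0.983), and both agents differed from calcitriol by -0.02 (limma adjusted p = 0.955).

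Taken line by line, the GADD45A difference of calcitriol from untreated was 0.24 in GM10861 (limma adjusted p = 0.782) and 0.40 in GM10855 (limma adjusted p = 0.0603). For both agents it was 0.24 in GM10861 (limma adjusted p = 0.657) and 0.36 in GM10855 (limma adjusted p = 0.0485), where it was the 1 member called of 9, against 2.33% of all probe sets. The difference between the lines in the calcitriol effect, GM10861 minus GM10855, was -0.16 (interval -0.44 to 0.12, limma adjusted p = 0.845), so an unequal response was not shown. Of 7 markers of antibody-secreting cells, 2 passed as higher with calcitriol than untreated, TNFRSF17 by 0.67 and CD38 by 1.0 (list median 0.15). Over the arrays of both lines, the mean of the 7 ranged from 8.85 to 9.40 with calcitriol and from 8.50 to 9.15 untreated. The lines differed in this mean, so these pooled ranges do not show the agent alone. Of 7 measured B cell markers, 2 passed as higher, CD79A by 0.85 and PAX5 by 0.26 (list median 0.12). Of all probe sets, 0.618% were called higher in this comparison. The part of either marker set in the GADD45A result was not tested.

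**Figure D1:**
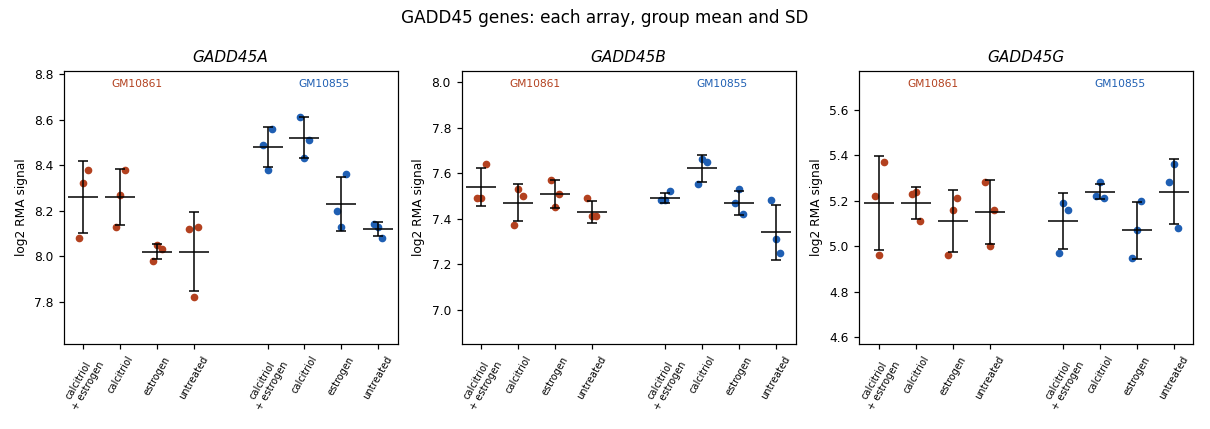
Log2 signal (vertical axis) of the GADD45 genes on every array, with GM10861 and GM10855 in separate parts of each panel and the agents along the horizontal axis; points are arrays, horizontal lines group means and error bars the SD (n = 3). GADD45A with calcitriol lies at 8.43 to 8.61 in GM10855, above the untreated 8.08 to 8.14.

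GADD45B, the family member induced by NF-kappaB and TGF-beta signals, did not pass in any comparison. In GM10855 it read 7.55, 7.66 and 7.65 with calcitriol and 7.48, 7.31 and 7.25 untreated, without overlap, while in GM10861 it read 7.37, 7.53 and 7.50 with calcitriol and 7.49, 7.41 and 7.41 untreated, overlapping. GADD45A and GADD45B were the 2 members whose calcitriol and untreated arrays did not overlap in GM10855, against 11% of all probe sets. In GM10861 it was 1 of 9 (GADD45A), against 14%. The averaged GADD45B difference was 0.15 ± 0.0524 (limma adjusted p = 0.401), and the lines differed by -0.24 (GM10861 minus GM10855, limma adjusted p = 0.733). GADD45G, the dimmest of the family here, stayed between 4.95 and 5.37 on all 24 arrays, with a difference of 0.02 for calcitriol against untreated (limma adjusted p = 0.995).

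None of the Cip/Kip genes passed in any agent comparison. CDKN1A, which encodes p21, read 7.53, 7.76 and 7.75 with both agents, 7.82, 7.54 and 7.39 with calcitriol, 7.39, 7.38 and 7.54 with estrogen and 7.48, 7.62 and 7.74 untreated in GM10861. In GM10855 it read 8.11, 8.17 and 8.23 with both agents, 8.37, 8.40 and 8.63 with calcitriol, 8.28, 8.44 and 8.29 with estrogen and 8.61, 8.21 and 8.30 untreated. Calcitriol and untreated arrays overlapped in both lines, and the averaged difference was 0.03 ± 0.0795 (limma adjusted p = 0.992). The interval for CDKN1A with calcitriol against untreated was -0.14 to 0.33 in GM10855 and -0.26 to 0.20 in GM10861.

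Among the treated groups of GM10855, CDKN1A was most widely separated between both agents and calcitriol, and GM10861 showed no such separation. In GM10855 all 3 arrays with both agents lay below all calcitriol arrays (difference -0.30 ± 0.112, limma adjusted p = 0.244), whereas in GM10861 the difference was 0.10 ± 0.112 with overlap. The difference between the lines was 0.40 for both agents against calcitriol (interval 0.07 to 0.73, limma adjusted p = 0.667) and 0.42 for both agents against estrogen (interval 0.09 to 0.75, limma adjusted p = 0.625), neither of which passed. In GM10855, 4 of 9 members (CDKN1A, CDKN1B, GADD45B and GADD45G) were lower without overlap with both agents than with calcitriol, against 17.4% of all probe sets in either direction. In GM10861 none of the 9 was separated in this way, against 9.07%.

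CDKN1B, which encodes p27, had its lowest averaged difference with both agents. It read 6.89, 7.19 and 7.06 with both agents and 7.09, 7.29 and 7.09 untreated in GM10861, and 7.04, 6.93 and 6.89 with both agents and 7.57, 6.99 and 7.13 untreated in GM10855. The groups overlapped in both lines, and the averaged difference was -0.19 ± 0.0788 (limma adjusted p = 0.331). The high untreated array of GM10855 (7.57) was also the highest untreated CDKN1A array (8.61), and without it the CDKN1B difference was -0.11 (limma adjusted p = 0.614). CDKN1C, which encodes p57, ranged from 6.88 to 7.32, and its averaged differences lay between -0.07 and -0.00.

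The INK4 genes likewise passed in none of the 6 agent comparisons. CDKN2A, which encodes p16INK4a and, from another start, the MDM2 inhibitor ARF, read 6.83, 6.50 and 6.76 with calcitriol and 6.63, 6.58 and 6.66 with estrogen in GM10861. In GM10855 it read 6.34, 6.28 and 6.09 with calcitriol and 5.92, 6.03 and 5.88 with estrogen, without overlap. It was 1 of 4 members (with GADD45A, GADD45B and GADD45G) that lay higher there without overlap, against 14.3% of all probe sets in either direction. In GM10861 it was 1 of 9 (GADD45A), against 12.1%. The averaged difference of calcitriol from estrogen was 0.18 ± 0.093 (limma adjusted p = 0.707). With both agents CDKN2A read 6.77, 6.96 and 6.68 in GM10861 and 5.88, 5.70 and 6.30 in GM10855. Both agents differed from estrogen by 0.18 in GM10861 and by 0.02 in GM10855 (limma adjusted p = 0.985 in GM10855). That difference averaged 0.10 (limma adjusted p = 0.879). For CDKN2A these groups did not overlap in GM10861 (lowest 6.68 against highest 6.66) but did in GM10855. In each line 3 of 9 members were without overlap in this comparison. The share of all probe sets in either direction was 12.1% in GM10861 and 12.3% in GM10855. Untreated, CDKN2A read 6.95, 6.77 and 6.77 in GM10861 and 6.26, 5.76 and 5.93 in GM10855. In GM10861 it was lower without overlap with estrogen than untreated. It was 1 of 2 members without overlap there (with CDKN1C, which was higher), against 11.5% of all probe sets in either direction. Against untreated the lines differed by -0.39 in the calcitriol effect (GM10861 minus GM10855, limma adjusted p = 0.747). CDKN2B (p15), whose gene lies beside CDKN2A, ranged from 4.90 to 5.59, and CDKN2D (p19INK4d) from 5.79 to 6.50. Their averaged differences lay between -0.13 and 0.03.

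**Figure D2:**
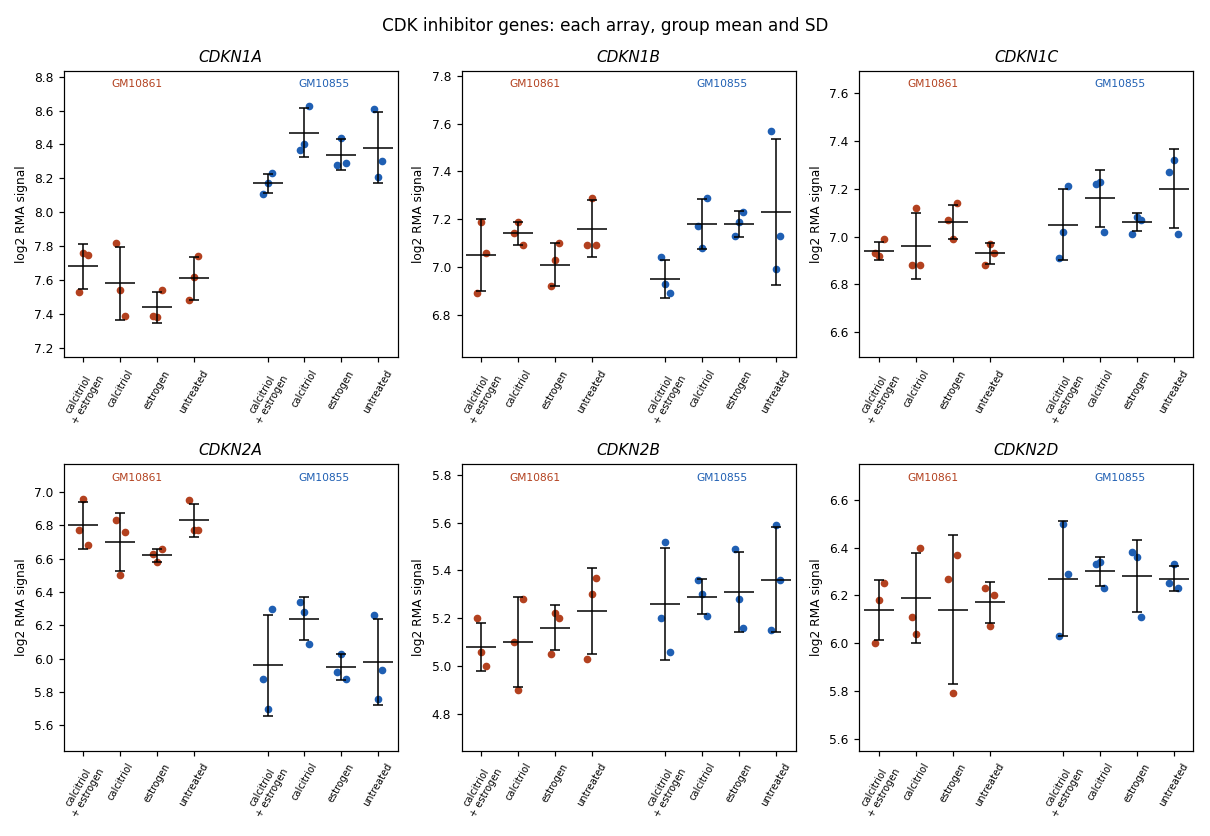
Log2 signal (vertical axis) of the measured CDK inhibitor genes on every array, by agent within GM10861 and GM10855; points are arrays, horizontal lines group means and error bars the SD (n = 3). CDKN1A is lower and CDKN2A higher in GM10861 than in GM10855 under every agent, while the agents within a line overlap for most genes.

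Across the 9 members, the median difference was 0.03 for calcitriol against untreated and -0.05 for both agents against untreated, where the median of all probe sets was 0.00 in size. At an unadjusted p under 0.05 stood 2 of 9 members for calcitriol, against 6.55% of all probe sets, and 3 of 9 for both agents, against 10.9%. For both agents against estrogen and calcitriol against estrogen, limma called 0 of 9 members, against 0.754% and 0.57% of all probe sets called. At an unadjusted p under 0.05 there was 1 member in each (GADD45A), against 7.94% and 7.43% of all probe sets, so that count is near the share of the whole array. For estrogen against untreated limma called 0 of 9, against 0% of all probe sets, and 0 of 9 had an unadjusted p under 0.05, against 5.17%. For both agents against calcitriol it called 0 of 9, against 0%, and 0 of 9 had an unadjusted p under 0.05, against 8.35%. The intervals of the averaged differences had half-widths of 0.11 to 0.19. No member differed between the lines in an agent effect after adjustment by limma (0 of 9 in all 6 comparisons, with 0 to 2 at an unadjusted p under 0.05, against 5.93% to 10.9% of all probe sets). The share of all probe sets that did was 0.00943% for calcitriol, 0% for estrogen and 0.0141% for both agents, each against untreated. It was 0.00471% for both agents against estrogen, 0% for both agents against calcitriol and 0.0236% for calcitriol against estrogen.

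**Figure D3:**
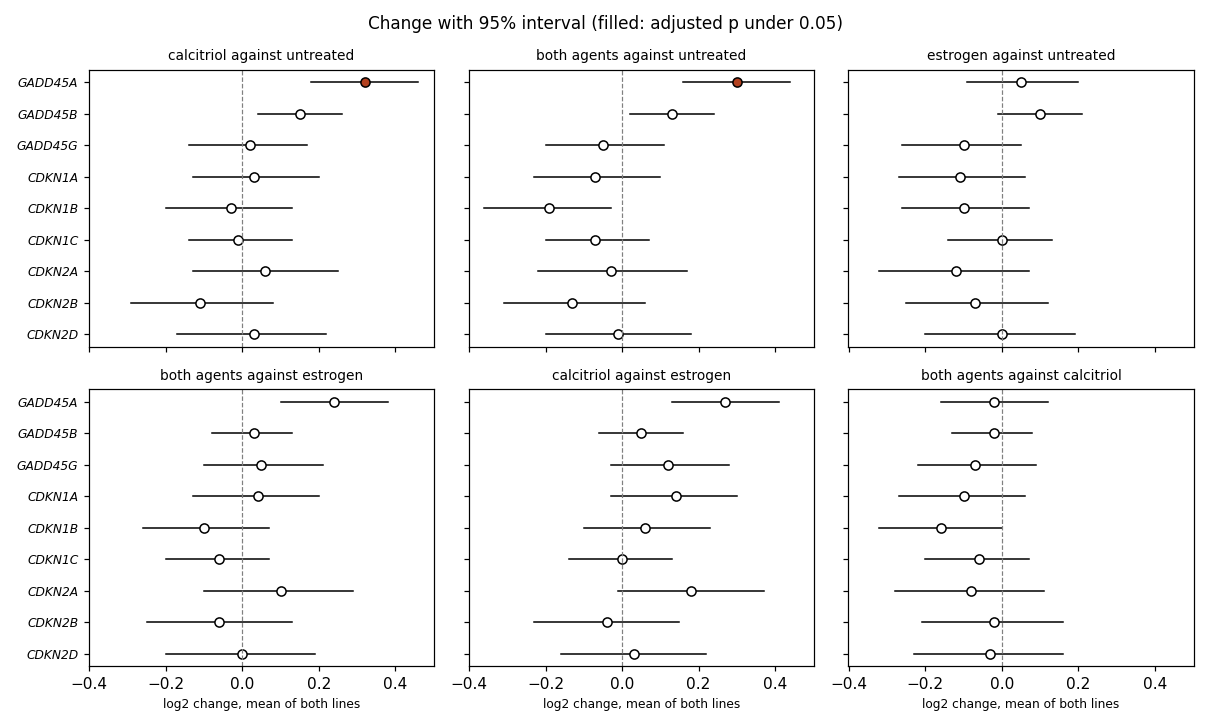
Log2 difference of each member (horizontal axis) with its 95% interval for the agent comparisons, averaged over GM10861 and GM10855; each point is a limma estimate from the fit to 24 arrays, filled where the adjusted p was under 0.05. Only GADD45A against untreated, at 0.32 for calcitriol and 0.30 for both agents, passed an adjusted p of 0.05.

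Few partners and targets of the members passed with the agents, and few probe sets of the whole array did: 0% to 1.15% were called per comparison, and 5.17% to 10.9% had an unadjusted p under 0.05. None of the 20 measured p53 targets and none of the 16 proliferation markers passed in any of the 6 comparisons by limma, with 0 to 3 of either list at an unadjusted p under 0.05. The measured GADD45 partners (5 of 7 listed, among them CDK1, PCNA and MAP3K4), regulators of CDKN1B (8, among them FOXO3 and CUL1) and Polycomb genes (6 of 9 listed, known to silence CDKN2A) also had none, with 0 to 2 of a list at an unadjusted p under 0.05. With both agents against untreated, CDK1 differed by -0.21 (limma adjusted p = 0.112), the mitotic cyclin gene CCNB2 by -0.21 (limma adjusted p = 0.0864) and FOXO3, a transcription factor that acts on CDKN1B, by -0.28 (limma adjusted p = 0.243). Among the 10 G1/S cyclins and CDKs, CDK6, the INK4 target, rose by 0.24 with both agents against untreated (limma adjusted p = 0.00862) and by 0.23 against estrogen (limma adjusted p = 0.0141). Among 13 pocket proteins and E2F factors, E2F5, a repressive E2F, fell by 0.21 with both agents against untreated (limma adjusted p = 0.0472). Its difference from untreated was -0.18 with calcitriol and -0.19 with estrogen, and the time-matched difference of both agents from estrogen was -0.02 (limma adjusted p = 0.966). E2F7, an atypical repressor, was lower by 0.25 with calcitriol than with estrogen (limma adjusted p = 0.0302). Its difference of both agents from estrogen, also matched in time, was -0.09 (limma adjusted p = 0.774). From untreated, E2F7 differed by -0.14 with calcitriol and by 0.11 with estrogen, and neither passed. USP7, which removes ubiquitin from MDM2 and p53, rose by 0.26 with both agents against untreated (limma adjusted p = 0.00713) and by 0.21 against estrogen (limma adjusted p = 0.0426). Calcitriol alone did not pass for USP7 (0.12 against untreated, limma adjusted p = 0.596, and 0.08 against estrogen, limma adjusted p = 0.781). It did not pass for CDK6 either (0.18 against untreated, limma adjusted p = 0.127, and 0.17 against estrogen, limma adjusted p = 0.162). Both agents differed from calcitriol by 0.06 for CDK6 (limma adjusted p = 0.757) and by 0.13 for USP7 (limma adjusted p = 0.519). A difference between the combination and calcitriol alone was thus not shown for either gene.

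CDKN1A and CDKN2A differed between the lines by more than any member differed between agents in the averages. Over the 12 arrays of each line, CDKN1A read 7.38, 7.54 and 7.82 (lowest, median and highest) in GM10861 and 8.11, 8.30 and 8.63 in GM10855, so the lines did not overlap. CDKN2A read 6.50, 6.76 and 6.96 in GM10861 and 5.70, 5.98 and 6.34 in GM10855, again without overlap and in the opposite direction. These were 2 of 9 members without overlap, against 10.4% of all probe sets. CDKN1A was lower in GM10861 by 0.76 on the log2 scale (difference -0.76 ± 0.0562, interval -0.88 to -0.64, limma adjusted p = 5.93e-11), or 1.69-fold lower. CDKN2A was 1.63-fold higher in GM10861 (0.71 ± 0.0658, interval 0.57 to 0.84, limma adjusted p = 3.57e-09). Differences larger in size were found in 3.28% and 3.82% of all probe sets.

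In all, 5 of 9 members passed between the lines, 1 higher and 4 lower in GM10861, against 41.8% of all probe sets, so the share is near that of the whole array. GADD45A was lower in GM10861 (-0.19 ± 0.0478, limma adjusted p = 0.00192), as were CDKN1C (-0.14, limma adjusted p = 0.0155) and CDKN2B (-0.16, limma adjusted p = 0.0453). GADD45B (0.01), GADD45G (-0.01), CDKN1B (-0.05) and CDKN2D (-0.12, limma adjusted p = 0.147) did not pass. The CDKN2B call was lost when the arrays were scaled by cyclic loess (limma adjusted p = 0.158) and in 14 of 24 fits that left out 1 array.

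Between the lines, 23.4% of all probe sets were called higher and 18.4% lower in GM10861, and the gene lists around the inhibitors are read against these shares. Of 16 proliferation markers, 15 were higher in GM10861 (list median 0.61, against -0.02 for all genes), among them the replication helicase gene MCM2 (0.55), CCNB2 (0.60) and the mitotic kinase gene AURKB (0.53). The mean of these markers ranged over arrays from 8.80 to 8.94 in GM10861 and from 8.14 to 8.39 in GM10855. Of 20 measured p53 targets, 12 were lower and 2 higher in GM10861 (list median -0.19), with TP53INP1, a p53 cofactor, at -0.61, the stress-response gene SESN1 at -0.38 and the death receptor gene TNFRSF10B at 0.24. MDM2, the p53 ubiquitin ligase and itself a p53 target, was lower in GM10861 by 0.49 (difference -0.49, limma adjusted p = 2.94e-09).

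**Figure D4:**
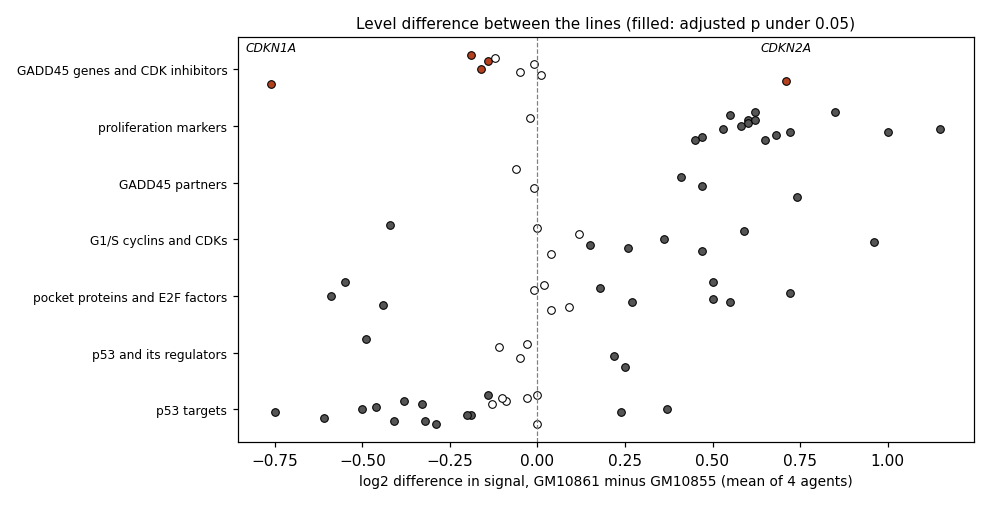
Log2 difference in signal between the lines, GM10861 minus GM10855 (horizontal axis, mean over the agents, 12 arrays per line), with 1 point per gene and 1 row per gene list; filled points passed an adjusted p of 0.05 and vertical offsets only separate points. CDKN1A at -0.76 and CDKN2A at 0.71 lie at opposite ends of the members, and 15 of 16 proliferation markers lie right of 0.

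Among the kinases the inhibitors bind, CDK1 (0.74), CDK2 (0.47) and CDK4 (0.36) were higher in GM10861, and CDK6 (0.00) did not pass. Of 10 G1/S cyclins and CDKs, 6 were higher and 1 was lower. Of 13 pocket proteins and E2F factors 6 were higher and 3 lower, with E2F5 at -0.59 and E2F7 at -0.44. Of 6 measured Polycomb genes, 2 were higher and 1 lower, with SUZ12 at 0.34 and CBX7 at -0.15. Of 8 regulators of CDKN1B, 4 were higher, among them CUL1 at 0.19. Called in either direction, the shares of the Polycomb genes and of the CDKN1B regulators are near the 41.8% of the whole array. All called CDKN1B regulators were higher, however, when 23.4% of all probe sets were called higher. Markers of antibody-secreting cells were lower in GM10861 for 5 of 7 and higher for 2 of 7, with array means from 8.50 to 8.92 in GM10861 and from 9.0 to 9.4 in GM10855. Of 7 measured B cell markers, 5 were higher and 1 lower in GM10861 (list median 0.15, range -0.52 to 1.73). The part of proliferation or of the state of differentiation in the CDKN1A and CDKN2A differences was not tested.

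The promoters of the inhibitors that separated the lines are shown for their GC boxes, the letters GGGCGG that Sp1 is known to bind, searched on both strands. They are the 250 bases before each listed RefSeq start (GRCh38.p14), not sequence read from these lines, and capitals mark GGGCGG. The RefSeq gene CDKN1A begins at 36676463, upstream of the window shown, and that start was not searched. For CDKN1A (chr6:36678464-36678713, plus strand) 4 matches were found, of which the last pair overlaps by a base, in a window of 76.4% G and C. CDKN2A has a start for ARF (chr9:21995325-21995574, minus strand) with no match and a start for p16INK4a (chr9:21974858-21975107, minus strand) with 1 match. Of 34788 promoters of this length, 42.6% hold at least 1. The VDR element of the DR3 type and the p53 element were searched on both strands as consensus patterns. No mismatch was allowed, and the p53 pattern had no spacer. They had no match in the windows of GADD45B, GADD45G, CDKN1A, CDKN1B, CDKN2A, CDKN2B and CDKN2D and are held by 0.204% and 0.0172% of all. At such shares almost any window has no match, so this does not show that a gene lacks the element. Sequence beyond the 250 bases was not searched. GADD45A and CDKN1C were not searched. The probe table lists ARF and p16INK4a transcripts alike for the CDKN2A probe set, so ARF and p16INK4a cannot be told apart.
CDKN1A: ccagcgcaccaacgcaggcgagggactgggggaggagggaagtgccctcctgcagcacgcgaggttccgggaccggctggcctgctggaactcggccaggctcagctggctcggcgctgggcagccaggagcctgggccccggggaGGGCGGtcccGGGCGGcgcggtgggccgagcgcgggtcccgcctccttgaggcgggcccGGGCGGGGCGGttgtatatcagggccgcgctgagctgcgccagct
CDKN2A, ARF start: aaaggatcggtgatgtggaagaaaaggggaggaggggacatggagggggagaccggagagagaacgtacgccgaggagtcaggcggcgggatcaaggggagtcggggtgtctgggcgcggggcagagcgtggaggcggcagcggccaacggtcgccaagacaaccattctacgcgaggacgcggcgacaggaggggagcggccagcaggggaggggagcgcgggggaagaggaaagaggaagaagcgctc
CDKN2A, p16INK4a start: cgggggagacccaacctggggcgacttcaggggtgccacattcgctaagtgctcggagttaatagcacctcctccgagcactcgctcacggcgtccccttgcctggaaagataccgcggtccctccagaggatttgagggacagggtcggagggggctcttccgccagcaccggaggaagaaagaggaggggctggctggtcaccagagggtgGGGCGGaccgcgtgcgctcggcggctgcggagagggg

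The genes whose signal was most like that of GADD45A were found by Pearson's correlation over the 24 arrays, each centred on the mean of its line, among 18416 genes. They were MTPN (0.844), SPATA13 (0.841), GALNT2 (0.839), TNFRSF17 (0.83) and LRP12 (0.83), given as a description of arrays that share the same agents. MTPN encodes myotrophin, GALNT2 an O-glycosylation enzyme, TNFRSF17 the receptor BCMA and LRP12 a lipoprotein receptor-related protein. With calcitriol against untreated they rose by 0.33, 0.69, 0.30, 0.67 and 0.46 in that order (limma adjusted p from 2.67e-08 to 0.00634). The genes were picked on these same arrays with the differences between agents left in. Their changes are therefore no separate evidence about GADD45A.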

How the data were processed

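Gene expression was measured on Affymetrix arrays of total RNA from 24 samples, 3 in each of 8 groups of line and agent. The authors deposited 1 log2 value per probe set and array; the submitters' processing notes name RMA and Affymetrix Expression Console 1.0.1. RMA equalises the arrays' distributions, which hides a shift common to most genes, and it shrinks differences of dim probe sets. The build, the doses, the vehicle and the estrogen compound are not stated in the labels. Of 33297 probe sets, 21214 had at least 1 symbol in the probe table (19460 with 1, 1754 with several, 12083 with none, unnamed here) and were tested. The number of unused sample columns was 0.

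Tests used limma 3.58.1 in R 4.3.3 on the deposited log2 values, with 1 mean per group over all 24 arrays (16 residual and 6.73 prior degrees of freedom). P-values are two-sided and Benjamini-Hochberg adjusted over the tested probe sets, called under 0.05, and no background limit was set. Line differences are GM10861 minus GM10855. For gene lists and correlations 1 single-symbol probe set per gene was kept (18417 genes), and 119 of 131 entries in 14 lists were measured. The text names all members, CAMP, CYP24A1 and VDR, up to 4 genes per list with the smallest p in any agent comparison, and the 5 genes most correlated with a called member; MDM2 and CDK1 belong to these. The members and lists were chosen with earlier results of these data known. The fit was tested on simulated data with 200 changed probe sets. Alternatives were a signal minimum of 5, all probe sets, other scalings, other variance fits, the compared arrays alone and leaving out arrays.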

Additional observations from a re-analysis of the deposited data

How the results depend on the processing

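No paired analysis was possible because the labels give no replicate numbers. For calcitriol against untreated, the number of members called (1, GADD45A) was 0 with only the arrays compared and 0 without the 3 most distant arrays (by root-mean-square deviation inside their group), an alternative chosen after seeing the data (limma adjusted p = 0.106). It was 0 to 1 over 12 fits that left out 1 array, with GADD45A at 0.27 to 0.35 and limma adjusted p from 0.016 to 0.0766. The call was lost without GM10861 calcitriol 2 or 3, GM10861 untreated 2, GM10855 calcitriol 1 or GM10855 untreated 3. For both agents against untreated, the number called (1) was 0 with only the arrays compared and 0 without the 3 most distant arrays (limma adjusted p = 0.11). It was 0 to 1 over 12 fits that left out 1 array, with GADD45A at 0.25 to 0.34 and limma adjusted p up to 0.0867. The call was lost without GM10861 both 2 or 3, GM10861 untreated 2, GM10855 both 1 or 3 or GM10855 untreated 3. For both agents against estrogen the number called (0) was 1 with a trended and robust variance (GADD45A, limma adjusted p = 0.0483). For calcitriol against estrogen it was 1 with that variance (limma adjusted p = 0.0244) and 1 with a mean signal of at least 5 (limma adjusted p = 0.0493). Between the lines, the number called (5) was 3 without the 3 most distant arrays (CDKN1C -0.10, limma adjusted p = 0.134; CDKN2B -0.13, limma adjusted p = 0.118) and 4 to 5 over the fits that left out 1 array. CDKN2B also missed with all probe sets (limma adjusted p = 0.0732), median centring (0.0516) and cyclic loess (0.158). No called value reversed, 34 single values lost their call and 3 gained it among those recomputed. The cause of each change was not tested, beyond the fewer arrays or probe sets that a setting leaves. With 3 arrays per group and no detection p-values, weak signals such as GADD45G and CDKN2B cannot be told from background here.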
